A study of Mus musculus with 18 samples.

Results

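Wild-type mouse bone marrow cells sorted from what the labels term vitro bone marrow (the in vitro set) were compared by bulk RNA sequencing with wild-type cells sorted from bone marrow (the marrow set). The comparison took the 3 wild-type libraries of each set, chosen by label, which made 6 of the 17 libraries with values among 18 labelled samples in 6 groups of 3. Both groups were wild type for Fabp4, came from murine bone marrow and had been sorted, and the labels give no further treatment. Which cells were sorted, how the in vitro cells were kept and the age and strain of the mice are not in the labels. The series title concerns the role of Fabp4 in leukemia stem cells, as against hematopoietic stem cells. The labels do not tie libraries to separate mice, so p-values cover only the variation among these 6 libraries, which may be technical.

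Bone marrow makes granulocytes, monocytes, red cells, platelets and lymphocytes from stem and progenitor cells. Progenitors carry receptors for stem cell factor and other cytokines and first fill primary granules with enzymes such as myeloperoxidase. Later neutrophil stages fill secondary and tertiary granules, monocytes turn on the receptor for macrophage colony-stimulating factor, and cells that present antigen turn on MHC class II genes. Basophils, mast cells and eosinophils store their own proteases and toxic proteins. Cells kept in culture are often grown with added cytokines and divide under other nutrient and oxygen supplies than cells in the animal.

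The values were FPKM (fragments scaled by transcript length and by mapped fragments) in a separate table for each set, so genes were compared by their rank within a library over the 12604 genes held by both tables. A percentile of 100 marks the gene with the most FPKM in a library. For testing, ranks were turned into normal scores, on which the middle rank is 0, and differences are given as marrow minus in vitro. In bulk samples, fewer cells of a type and less RNA per cell cannot be told apart. Set, table and any handling that differed between the sets cannot be told apart either.

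The sets differed in how many genes were seen and in how alike the libraries were. Of the shared genes, 11975, 11930 and 11755 were above 0 in the in vitro libraries and 8248, 8214 and 8105 in the marrow libraries, without overlap (exact two-sided permutation p = 0.1, the smallest that 3 against 3 libraries allow). Estimated depth spanned 31.5 to 36.7 M fragments across in vitro libraries and 21.8 to 31.4 M across marrow libraries. Marrow libraries 1 and 2 scored best at 43.5 and 51.7 M, above every in vitro library, so the order of the sets by depth is uncertain, and its part in the number of genes was not tested. The marrow libraries listed at 0 some genes that every cell uses, such as the ribosomal protein gene Rpl28 (0, 0 and 0.0639 FPKM, against 3107, 3172 and 3716 in vitro), so a 0 here can be a failed estimate. Spearman coefficients across the shared genes were 0.989 to 0.994 among in vitro libraries and 0.555 to 0.601 among marrow libraries. Between the sets they were 0.581 to 0.658. Marrow libraries 2 and 3 correlated better with every in vitro library (0.622 to 0.631 and 0.648 to 0.658) than with any other marrow library. Marrow library 1 was at 0.581 to 0.589 with the in vitro libraries and at 0.583 and 0.555 with marrow libraries 2 and 3. The 10 highest genes held 8.9 to 10.1% of summed FPKM in vitro and 13.7 to 19.3% in marrow.

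**Figure D1:**
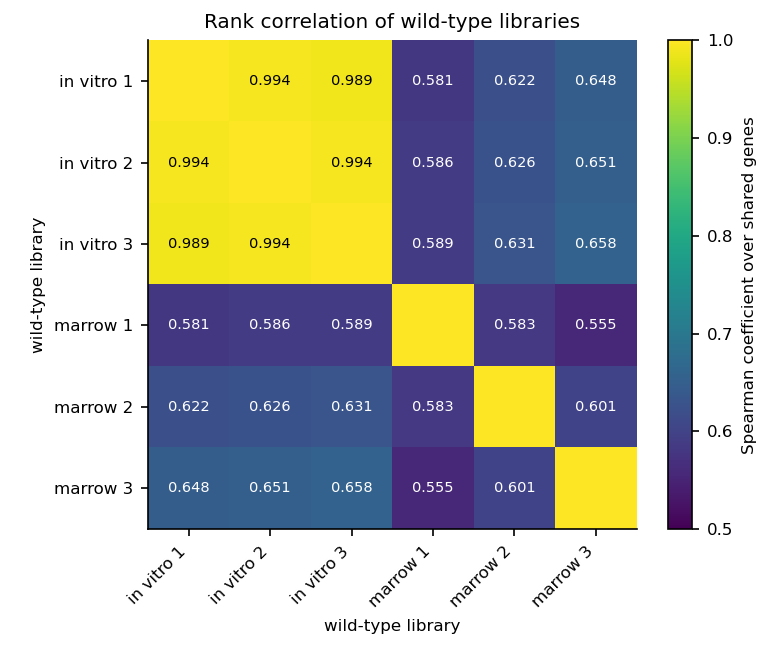
Spearman coefficients between the 6 wild-type libraries across the 12604 shared genes, with libraries on both axes and the coefficient as colour and number. The in vitro libraries form a tight block (0.989 to 0.994), while marrow libraries correlate with each other at 0.555 to 0.601 and with in vitro libraries at 0.581 to 0.658.

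Of 9567 genes with at least 1 FPKM in at least 3 of the 6 libraries, 2090 (21.8%) differed in rank by limma at an adjusted p under 0.05. Of these, 817 (8.54% of tested genes) were higher in marrow and 1273 (13.3%) were higher in vitro. Each count of calls in a list below is to be read against these shares, or against the weighted shares for weighted counts. Percentile ranks did not overlap between the sets for 43.8% of tested genes, 17.5% with marrow higher and 26.3% with in vitro higher, and each non-overlap named below is to be read against these shares. This fit gives both sets 1 spread, although the median SD of a gene's score was 0.402 in marrow and 0.05 in vitro. On simulated data with such unequal spread it called more unchanged genes than its threshold allows, and a fit with library weights per set called fewer of them. With weights per set, 1156 genes (12.1%) were called, 336 (3.51%) higher in marrow and 820 (8.57%) higher in vitro, and 985 of the 2090 were called in the same direction. Below, "weighted" names the adjusted p of that fit, and a gene is said to hold where both fits called it. Only 209 genes, 115 higher in marrow and 94 higher in vitro, were called the same way when each of the 6 libraries was left out in turn. Dropping an in vitro library left 233 to 288 calls, partly because genes listed at 0 in marrow then failed the filter. Of the 1273 genes higher in vitro, 768 were listed at 0 in at least 1 marrow library and 597 in all 3. The share of calls that were higher in marrow, 39.1%, also depended on the genes tested, the genes ranked, the scale, the fit and the libraries used. It was 63.0% among the 1789 calls (34.6%) from 5168 genes above 0 in all 6 libraries, where 21.8% of the genes tested were higher in marrow and 12.8% higher in vitro. It was 51.4% with no filter, 24.9% on FPKM as deposited, 29.1% with weights per set, 25.9% with the replicate number as a block and 8.3% with ranks over each whole table. Without 1 in vitro library it was 57.3 to 59.0%. The median score difference over all tested genes was -0.15, and -0.58 with ranks over each whole table.

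**Figure D2:**
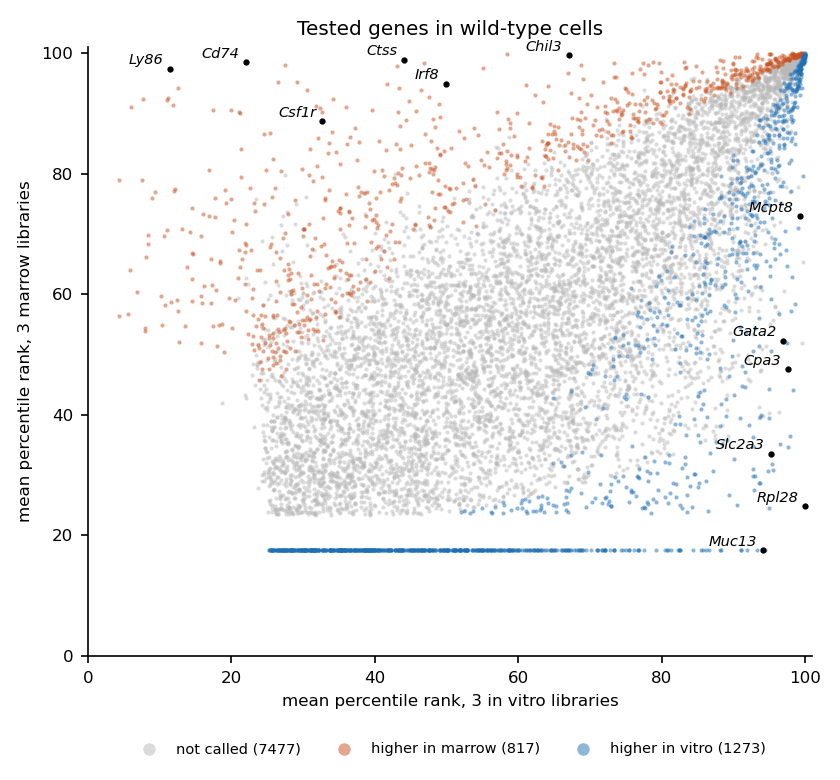
Mean percentile rank of the 9567 tested genes in the 3 in vitro libraries (horizontal) and the 3 marrow libraries (vertical), coloured by the unweighted limma call, with genes that illustrate the extremes labelled. The horizontal line of 597 genes called higher in vitro is made of genes listed at 0 in all 3 marrow libraries.

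The genes that stood highest in each set were of different kinds. In vitro, the 15 highest were led by the mitochondrial cytochrome oxidase gene COX1, the translation factor gene Eef1a1 and the ribosomal protein genes Rplp1, Rpl32 and Rps29. In marrow they were led by Tmsb4x, which encodes the actin-binding peptide thymosin beta 4, the ferritin light chain gene Ftl1 and the lysozyme gene Lyz2, and also held the immune signalling adaptors Tyrobp and Fcer1g. Lyz2 was at 242, 278 and 320 FPKM in vitro and at 7857, 9317 and 11390 in marrow. All 3 marrow libraries lay above all 3 in vitro libraries (score difference 1.40 ± 0.04 SE, limma adjusted p = 0.00032, weighted 3.54e-06). Tyrobp was at 222, 270 and 353 FPKM in vitro and at 4862, 5287 and 4330 in marrow. The sets did not overlap (score difference 1.07 ± 0.05 SE, limma adjusted p = 0.000897, weighted 0.00063). Ftl1 was at 1781, 2088 and 2342 FPKM in vitro and at 14870, 17930 and 14950 in marrow. Ftl1 was again higher in every marrow library (score difference 0.85 ± 0.05 SE, limma adjusted p = 0.00129, weighted 0.02).

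The MHC class II genes, which present antigen on dendritic cells, B cells and macrophages, gave some of the widest differences between the sets. Cd74 was at 0.402, 0.478 and 1.32 FPKM in vitro and at 455, 827 and 547 in marrow. Cd74, the invariant chain that escorts class II molecules, thus sat low in the in vitro ranks and near the top of the marrow ranks (score difference 2.98 ± 0.14 SE, limma adjusted p = 0.000897, weighted 0.00107), and the call held without each library. H2-Eb1 was at 0.0162, 0.0507 and 0.266 FPKM in vitro and at 109, 84.2 and 75.3 in marrow. All marrow libraries were far above the in vitro libraries (score difference 2.58 ± 0.18 SE, limma adjusted p = 0.0014, weighted 0.00869). H2-Ab1 was at 22.1, 22.5 and 26.6 FPKM in vitro and at 284, 287 and 188 in marrow. H2-Ab1, a class II beta chain, had the highest in vitro level of the group and was still higher in marrow (score difference 1.06 ± 0.08 SE, limma adjusted p = 0.00175, weighted 0.00805). H2-Aa was at 0.553, 0.125 and 1.07 FPKM in vitro and at 56.6, 142 and 63 in marrow. The alpha chain gene H2-Aa did not overlap between the sets either (score difference 2.19 ± 0.19 SE, limma adjusted p = 0.00205). As these genes moved together, the 250 bases before the start of H2-Aa and H2-Eb1 are shown from RefSeq (GRCm38.p6), 5′ to 3′ on the strand of the gene, with the Y box letters CTGATTGG in capitals. The pair and the motif were chosen after the values, other promoters and several other motifs had been looked at, and H2-Ab1 is named only. The H2-Aa window is chr17:34287824-34288073 on the minus strand and the H2-Eb1 window is chr17:34305617-34305866 on the plus strand.
H2-Aa: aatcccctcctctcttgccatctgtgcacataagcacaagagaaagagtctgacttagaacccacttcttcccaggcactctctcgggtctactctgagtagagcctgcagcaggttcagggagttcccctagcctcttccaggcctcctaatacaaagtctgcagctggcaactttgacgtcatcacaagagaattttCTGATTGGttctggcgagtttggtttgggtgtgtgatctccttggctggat
H2-Eb1: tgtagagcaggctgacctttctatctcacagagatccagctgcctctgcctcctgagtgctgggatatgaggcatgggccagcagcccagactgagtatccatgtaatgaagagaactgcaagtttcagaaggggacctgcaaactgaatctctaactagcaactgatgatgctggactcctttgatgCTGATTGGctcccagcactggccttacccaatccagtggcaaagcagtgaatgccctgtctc
The capitals begin 51 bases before the start of H2-Aa and 62 bases before the start of H2-Eb1. These letters, searched on both strands, were in 1258 of 32851 RefSeq windows of this length (3.83%). The match is a description of the sequence, and no binding was measured.

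Dendritic cell genes, a list that includes these class II genes, had 10 of 17 names in both tables and 7 tested. Of these 5 were higher in marrow and 0 higher in vitro, with a median score difference of 1.65 against -0.15 over all tested genes, and with weights 6 were higher in marrow. Irf8 was at 8.21, 5.37 and 6.16 FPKM in vitro and at 109, 170 and 220 in marrow. Irf8, the transcription factor of monocyte and dendritic cell progenitors, was higher in marrow in both fits (score difference 1.65 ± 0.12 SE, limma adjusted p = 0.00152, weighted 0.00405). Other dendritic genes were not tested or gave no call in the unweighted fit: Xcr1 and Siglech were listed at 0 in all 3 marrow libraries, and Itgax, the CD11c gene, was listed at 0, 0.0358 and 0 FPKM there, values that can be failed estimates. Cd209a, held by the marrow table alone, was at 0.031, 1.04 and 118 FPKM, that is, high in 1 library. Of 18 B cell names only 2 were tested, Cd74 and Cd79b, and of these Cd74 alone was called. Cd79b was at 6.54, 7.62 and 8.81 FPKM in vitro and at 82, 52.9 and 0 in marrow. Cd79b, a B cell receptor subunit, was thus above every in vitro library in marrow libraries 1 and 2. It was listed at 0 in marrow library 3, which can be a failed estimate, and was not called (limma adjusted p = 0.674). T cell, NK cell, stromal and adipocyte lists had 1, 1, 2 and 1 tested members, with 0 called higher in marrow.

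Monocyte and macrophage genes were the cell identity list with the most calls toward marrow. Of 26 names, 18 were in both tables and 13 were tested, and 11 were higher in marrow and 0 higher in vitro (9 and 0 with weights), with a median score difference of 1.21. Their median percentile was 48.7 in vitro and 84.8 in marrow, and the list held 0.0752 to 0.0879% of summed FPKM in vitro against 0.571 to 0.878% in marrow. Csf1r was at 3.17, 2.13 and 1.99 FPKM in vitro and at 68.1, 39 and 90.7 in marrow. The receptor gene Csf1r, which receives macrophage colony-stimulating factor, was higher in every marrow library (score difference 1.68 ± 0.15 SE, limma adjusted p = 0.00205, weighted 0.00428), and the call held without each library. Ctss was at 4.3, 3.79 and 6.71 FPKM in vitro and at 718, 678 and 805 in marrow. Ctss encodes cathepsin S, a protease of antigen-presenting cells, and the sets did not overlap (score difference 2.44 ± 0.12 SE, limma adjusted p = 0.000897, weighted 0.00296). Cx3cr1 was at 0.209, 0.323 and 0.237 FPKM in vitro and at 19.8, 27.4 and 41.4 in marrow. Cx3cr1, the fractalkine receptor of monocytes, was under 1 FPKM in vitro and higher in every marrow library (score difference 1.82 ± 0.15 SE, limma adjusted p = 0.00184, weighted 0.00239). Cd68 was at 26.4, 34.1 and 41.9 FPKM in vitro and at 591, 446 and 685 in marrow. The lysosomal macrophage protein gene Cd68 was also higher in marrow (score difference 1.21 ± 0.10 SE, limma adjusted p = 0.00205, weighted 0.0391). Ly6c2 was at 200, 295 and 312 FPKM in vitro and at 1854, 1988 and 2894 in marrow. Ly6c2, the surface marker of classical monocytes, was already abundant in vitro and higher still in marrow (score difference 0.74 ± 0.09 SE, limma adjusted p = 0.00263, weighted 0.0111). F13a1 was at 85, 60.4 and 49.8 FPKM in vitro and at 50, 53.1 and 157 in marrow. F13a1, the coagulation factor XIII gene of monocytes, overlapped between the sets and was not called (limma adjusted p = 0.871). Macrophage genes were uneven between marrow libraries. Adgre1 was at 4.73, 7.06 and 6.73 FPKM in vitro and at 51.6, 14.4 and 110 in marrow. Adgre1, which encodes F4/80, was higher in marrow in the unweighted fit alone (score difference 1.11, limma adjusted p = 0.0281). Trem2 was at 0.804, 0.959 and 0.526 FPKM in vitro and at 0, 0 and 66.5 in marrow. Trem2, a lipid receptor of macrophages, was above 0 in marrow library 3 alone and was not tested. Vcam1 did not exceed 0.551 FPKM in any of the 6 libraries.

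Primary granule genes, made by early granulocyte precursors, were abundant in both sets. Among 12 tested primary granule genes, 3 were higher in marrow and 2 higher in vitro (2 and 2 with weights), the median score difference was -0.01, and the list held 1.53 to 1.56% of summed FPKM in vitro and 1.02 to 1.82% in marrow. Mpo was at 1729, 1658 and 1646 FPKM in vitro and at 652, 387 and 544 in marrow. Myeloperoxidase, the enzyme that marks early granule formation, was thus higher in rank in vitro (score difference -0.48 ± 0.07 SE, limma adjusted p = 0.00492, weighted 0.0294). Elane was at 1460, 1512 and 1638 FPKM in vitro and at 5347, 2122 and 3049 in marrow. Neutrophil elastase lay the other way (score difference 0.43 ± 0.08 SE, limma adjusted p = 0.017, weighted 0.00296). Prtn3 was at 1006, 919 and 1083 FPKM in vitro and at 2230, 1752 and 1503 in marrow. Proteinase 3 also lay higher in marrow (score difference 0.30 ± 0.04 SE, limma adjusted p = 0.00295, weighted 0.016). Ctsg was at 1211, 1273 and 1490 FPKM in vitro and at 1110, 208 and 1272 in marrow. Cathepsin G (Ctsg), a protease of the same granules, overlapped between the sets and was not called (limma adjusted p = 0.509). Calr was at 1195, 1280 and 1335 FPKM in vitro and at 368, 320 and 351 in marrow. Calr, a chaperone of the endoplasmic reticulum, was higher in vitro (score difference -0.53 ± 0.04 SE, limma adjusted p = 0.00138, weighted 0.00296).

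Secondary and tertiary granule genes had 18 tested members, of which 5 were higher in marrow and 0 higher in vitro (3 and 0 with weights), with a median score difference of 0.27. They held 9.87, 8.17 and 2.5% of summed FPKM in marrow libraries 1, 2 and 3 against 0.212 to 0.443% in vitro. In marrow library 3 the highest member was Lyz2, at 11390 FPKM, which monocytes also express. S100a8 was at 202, 503 and 572 FPKM in vitro and at 33970, 28260 and 837 in marrow. S100a8, a calcium-binding alarmin of neutrophils and monocytes, was the highest of these in marrow libraries 1 and 2 but was far lower in library 3, and it was not called (limma adjusted p = 0.113). S100a9 was at 191, 564 and 696 FPKM in vitro and at 3978, 2698 and 91.6 in marrow. Its partner S100a9 was below every in vitro library in marrow library 3 and above them in the other marrow libraries (adjusted p = 0.804). Camp was at 5.93, 25.4 and 27.5 FPKM in vitro and at 5809, 5084 and 150 in marrow. Camp, the cathelicidin gene, was higher in all marrow libraries, again with library 3 lowest. Its call came from the unweighted fit alone (score difference 2.11 ± 0.51 SE, limma adjusted p = 0.0364) and did not hold without each library. Ngp was at 122, 362 and 402 FPKM in vitro and at 3962, 2236 and 83 in marrow. Ngp, the neutrophilic granule protein gene, lay below the in vitro range in library 3 (adjusted p = 0.679). Chil3 was at 8.45, 17 and 21 FPKM in vitro and at 7200, 1625 and 897 in marrow. Chil3, a chitinase-like protein of myeloid cells, was higher in marrow in each library (score difference 2.36 ± 0.28 SE, limma adjusted p = 0.0026, weighted 0.179). Hp was at 62.5, 51.4 and 58.9 FPKM in vitro and at 1083, 1651 and 909 in marrow. Haptoglobin (Hp) showed no such gap between marrow libraries (score difference 1.22 ± 0.09 SE, limma adjusted p = 0.00152, weighted 0.00134). Ly6g, the surface marker of mature neutrophils, was listed at 0 in all 3 marrow libraries and at no more than 0.779 FPKM in vitro.

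**Figure D3:**
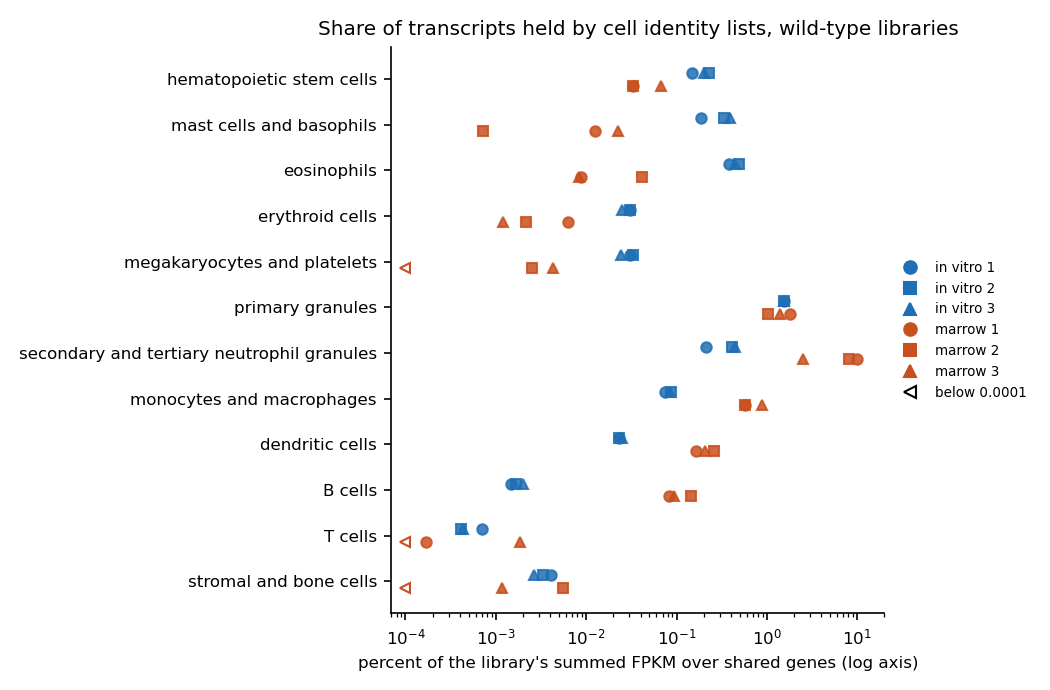
Percent of each library's summed FPKM over the shared genes (log axis) held by 12 cell identity lists, with 1 point per wild-type library and open triangles for shares below the axis. Stem cell, basophil, eosinophil, erythroid and megakaryocyte lists lie higher in all 3 in vitro libraries, while monocyte, secondary and tertiary granule, dendritic and B cell lists lie higher in all 3 marrow libraries and primary granules overlap, the B cell share resting on Cd74. Most of the in vitro stem cell share came from Txnip, Egr1, Gata2 and Cd34, and each of these genes is also on another list.

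Myeloid transcription factors were present in both sets. Of 16 tested, 9 were higher in marrow and 3 higher in vitro (5 and 2 with weights), with a median score difference of 0.42. Spi1 was at 77.5, 93.3 and 108 FPKM in vitro and at 296, 324 and 310 in marrow. Spi1 (PU.1), needed for all myeloid cells, ranked high in both sets and slightly higher in marrow (score difference 0.35 ± 0.06 SE, limma adjusted p = 0.01, weighted 0.224). Irf5 was at 1.88, 1.89 and 1.93 FPKM in vitro and at 9.47, 13.4 and 17.6 in marrow. Irf5, a factor of inflammatory macrophage genes, was higher in marrow (score difference 1.07 ± 0.14 SE, limma adjusted p = 0.00311, weighted 0.0226). Nr4a1 was at 1.93, 2.06 and 2.11 FPKM in vitro and at 24.1, 50.9 and 17 in marrow. The nuclear receptor Nr4a1, needed for patrolling monocytes, was likewise higher there (score difference 1.36 ± 0.18 SE, limma adjusted p = 0.00403, weighted 0.0104). Klf4 was at 0.649, 0.851 and 0.609 FPKM in vitro and at 5.45, 6.36 and 29.3 in marrow. Klf4, a monocyte factor, was under 1 FPKM in every in vitro library and higher in every marrow library (score difference 1.27, limma adjusted p = 0.00684). Cebpa was at 73.8, 86.9 and 105 FPKM in vitro and at 22.7, 18.1 and 7.67 in marrow. Cebpa, which drives the step from progenitor to granulocyte and monocyte precursor, lay the other way (score difference -0.94, adjusted p = 0.00889). Myc was at 81.3, 108 and 128 FPKM in vitro and at 10.8, 22.8 and 38.4 in marrow. Myc was also higher in vitro (score difference -0.88 ± 0.14 SE, limma adjusted p = 0.00745, weighted 0.0515).

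Stem cell genes were called only toward the in vitro cells, and most of these calls did not hold with weights. Of 25 hematopoietic stem cell names, 12 were in both tables and tested, 3 were higher in vitro and 0 higher in marrow (1 and 0 with weights), and the median score difference was -0.63. In the unweighted fit 3 of 12 is above the 13.3% of all tested genes that were higher in vitro. With weights, 1 of 12 is close to the 8.57% of all tested genes that were higher in vitro. Gata2 was at 133, 181 and 196 FPKM in vitro and at 0.0137, 4.47 and 5.78 in marrow. Gata2, a factor of stem cells and of the mast cell and basophil lineages, was the one call of this list that held with weights (score difference -1.81 ± 0.17 SE, limma adjusted p = 0.00205, weighted 0.00183), and it held without each library. Cd34 was at 108, 90.3 and 90.8 FPKM in vitro and at 21.9, 61.6 and 55.2 in marrow. Cd34, a surface marker of progenitors, was higher in vitro in the unweighted fit (score difference -0.54 ± 0.13 SE, limma adjusted p = 0.0368, weighted 0.121). Kit was at 28.2, 23.1 and 18.7 FPKM in vitro and at 1.9, 0.00747 and 8.51 in marrow. Kit, the stem cell factor receptor, did not overlap between the sets but was not called (limma adjusted p = 0.0626). Meis1 was at 50.4, 34.3 and 33.1 FPKM in vitro and at 0, 17.7 and 1.87 in marrow. Meis1, the homeobox partner of Hox proteins in stem and leukemia cells, was not called (adjusted p = 0.112). Mecom was at 7.99, 7.23 and 5.99 FPKM in vitro and at 9.64, 5 and 0 in marrow. Mecom, a stem cell factor, overlapped between the sets (adjusted p = 0.899). The stem cell genes in both tables had a median percentile of 80.7 in vitro. Those held by the in vitro table alone ranged from 0 in all 3 libraries (Tek and Fgd5) through Hlf (0.561, 0.945 and 0.688 FPKM) and Procr (0.149, 0.248 and 0.245) to Eng (7.63, 9.26 and 8.75) and Pdzk1ip1 (13.8, 15.4 and 15.3). They were not analysed here in marrow.

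The Hox and Meis1 leukemia program, a set of homeobox genes and partners that self-renewing leukemia cells often express, had 15 tested members, of which 2 were higher in each set and 11 not called, with a median score difference of -0.04. That is close to the 13.3% of all tested genes that were higher in vitro, while 8.54% were higher in marrow. Hoxa9 was at 11, 10.7 and 5.19 FPKM in vitro and at 13.6, 13.1 and 5.15 in marrow. Hoxa9 overlapped between the sets (limma adjusted p = 0.337). Myb was at 178, 162 and 146 FPKM in vitro and at 62.9, 58.3 and 76.6 in marrow. Myb, a factor of dividing progenitors, was higher in vitro (score difference -0.60 ± 0.06 SE, limma adjusted p = 0.00205, weighted 0.0454), and that call held without each library. Mef2c was at 1.32, 1.02 and 0.801 FPKM in vitro and at 20.5, 27.9 and 11.2 in marrow. Mef2c, a factor of lymphoid and monocyte progenitors, was higher in marrow (score difference 1.38 ± 0.17 SE, limma adjusted p = 0.00297, weighted 0.0106). Hoxa7 was at 8.91, 10.6 and 11.6 FPKM in vitro and at 15.5, 37.9 and 32 in marrow. Hoxa7 was higher in marrow in the unweighted fit (score difference 0.59 ± 0.14 SE, limma adjusted p = 0.0321, weighted 0.212).

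Growth factor receptors gave 3 calls in each direction among 10 tested (4 and 2 with weights). Csf2rb2 was at 67.8, 91.1 and 85.4 FPKM in vitro and at 0, 0 and 0 in marrow. Csf2rb2, the interleukin 3 receptor beta chain of mice, was listed at 0 in all marrow libraries (score difference -2.43 ± 0.13 SE, limma adjusted p = 0.000897, weighted 0.0012). It is nearly identical to Csf2rb, so reads may be split between these genes. Csf2rb was at 98.9, 114 and 105 FPKM in vitro and at 19.6, 37.4 and 13.9 in marrow. Csf2rb, the shared chain of the interleukin 3, interleukin 5 and GM-CSF receptors, was also higher in vitro (score difference -0.90 ± 0.14 SE, limma adjusted p = 0.00689, weighted 0.0129). Csf2ra was at 4.44, 4.9 and 5.16 FPKM in vitro and at 25.6, 50.5 and 20 in marrow. Csf2ra, the alpha chain for GM-CSF, was higher in marrow (score difference 1.05 ± 0.16 SE, limma adjusted p = 0.00736, weighted 0.0345), so the chains of this receptor did not move together.

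Several basophil, mast cell and eosinophil genes ranked near the top in vitro. Of 5 tested mast cell and basophil genes 3 were higher in vitro and 0 higher in marrow (4 and 0 with weights), with a median score difference of -1.81, and the list held 0.188, 0.335 and 0.393% of summed FPKM in vitro against 0.0126, 0.00073 and 0.0227% in marrow. Mcpt8 was at 545, 1085 and 1427 FPKM in vitro and at 45.7, 0.0341 and 81 in marrow. Mcpt8, a protease of basophils, ranked near the top of every in vitro library and was uneven in marrow (score difference -1.69 ± 0.41 SE, limma adjusted p = 0.0357, weighted 0.00807). Cpa3 was at 134, 253 and 320 FPKM in vitro and at 0, 0.0523 and 37.1 in marrow. Cpa3, a carboxypeptidase of mast cell and basophil granules, was near 0 in 2 marrow libraries (score difference -2.05 ± 0.48 SE, limma adjusted p = 0.0316, weighted 0.0146). The basophil protease gene Prss34, at 390, 901 and 1270 FPKM, and the IgE receptor chain genes Fcer1a (21.8, 38.6 and 45.1) and Ms4a2 (45.3, 69.0 and 75.5) were held by the in vitro table alone. The first in vitro library was the lowest in each of these 5 genes. Of the other listed genes not analysed in marrow, Cma1, Tpsb2, Il4 and Cd200r3 were at 3.47 to 16.7 FPKM in vitro. Mcpt4 was at 0 in every in vitro library.

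Among eosinophil genes, 2 of 5 tested were higher in vitro and 0 higher in marrow, and neither call held with weights (0 and 0). Prg2 was at 1748, 2273 and 2186 FPKM in vitro and at 0, 177 and 39.9 in marrow. Prg2, the eosinophil major basic protein gene, was thus among the most abundant transcripts in vitro and far lower in every marrow library, but marrow spread kept it from a call (limma adjusted p = 0.0742). Prg3 was at 52.8, 66.9 and 63.4 FPKM in vitro and at 57.2, 80 and 0 in marrow. Its relative Prg3 overlapped between the sets (adjusted p = 0.457). Epx, the eosinophil peroxidase gene, was at 352, 459 and 400 FPKM in vitro and was not analysed here in marrow. Of the other listed eosinophil genes not analysed in marrow, Ear6 was at 69.4, 110 and 120 FPKM in vitro. Ccr3 (0.116, 0.242 and 0.572), Il5ra (0.014, 0.0802 and 0) and Alox15 (0.0851, 0.247 and 0.361) were under 1 FPKM there, so the listed genes did not go together in vitro. Ear2 was at 13.5, 24.1 and 32.7 FPKM in vitro and at 0, 0 and 0 in marrow. The ribonuclease gene Ear2 was listed at 0 in every marrow library (score difference -1.64 ± 0.19 SE, limma adjusted p = 0.00239, weighted 0.0916). Ear genes are near-identical copies, so their reads are uncertain.

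Few red cell and platelet genes were tested. Of 5 tested erythroid genes, 2 were higher in vitro and 0 higher in marrow (3 and 0 with weights), and of 4 tested megakaryocyte genes likewise 2 and 0 (2 and 0). In each list this is above the 13.3% of all tested genes that were higher in vitro (8.57% with weights), but it rests on few genes. Klf1, Gp9 and Selp were among the members not called (limma adjusted p = 0.174, 0.409 and 0.277). Tfrc was at 72.5, 75.8 and 58.1 FPKM in vitro and at 13, 13.6 and 7.05 in marrow. Tfrc, the transferrin receptor of red cell precursors and of dividing cells, was higher in vitro (score difference -0.92 ± 0.12 SE, limma adjusted p = 0.00397, weighted 0.0408). Thbs1 was at 118, 129 and 97.6 FPKM in vitro and at 0, 0 and 7.05 in marrow. Thbs1, thrombospondin of platelets and monocytes, was listed at 0 in marrow libraries 1 and 2 and was higher in vitro (score difference -2.22 ± 0.36 SE, limma adjusted p = 0.00892, weighted 0.00315). Hba-a1 was at 39.2, 40 and 41.6 FPKM in vitro and at 12.8, 0 and 0 in marrow. Hba-a1, an alpha globin gene, was above 0 in 1 marrow library and was not called (limma adjusted p = 0.0637). Egfl7 was at 78.2, 76.2 and 81.2 FPKM in vitro and at 0, 2.12 and 0 in marrow. Egfl7, of endothelial cells and stem and progenitor cells, was higher in vitro (score difference -2.06 ± 0.31 SE, limma adjusted p = 0.00688, weighted 0.00187).

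**Figure D4:**
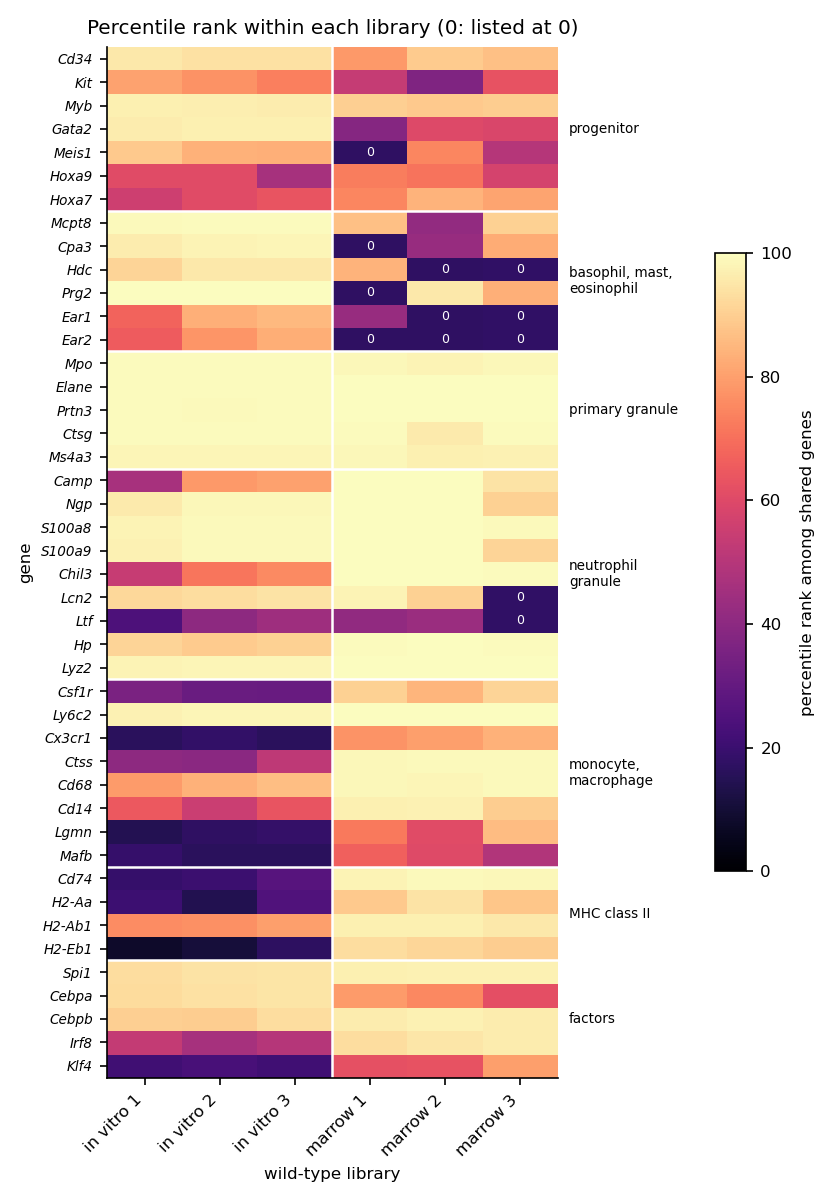
Percentile rank among the 12604 shared genes (colour) of cell identity genes (rows) in each wild-type library (columns), with 0 printed where a gene is listed at 0. Basophil and eosinophil genes are bright in vitro, MHC class II and monocyte genes in marrow, and primary granule genes in both. The genes drawn were chosen after the values were seen.

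Most ribosomal protein genes ranked lower in marrow. Of 40 cytosolic ribosomal protein genes, all tested, 35 were higher in vitro and 0 higher in marrow (31 and 0 with weights), 19 were called higher in vitro without each library, and the median score difference was -0.46. They held 14.9 to 15.6% of summed FPKM in vitro and 4.29 to 5.49% in marrow. These genes have many processed pseudogenes, so single values are uncertain. Rpl7 was at 2166, 2141 and 2496 FPKM in vitro and at 882, 681 and 619 in marrow. Rpl7, of the large subunit, was higher in every in vitro library (score difference -0.52 ± 0.03 SE, limma adjusted p = 0.00131, weighted 0.00153). Rpl13 was at 2516, 2619 and 2993 FPKM in vitro and at 2057, 1756 and 2318 in marrow. Rpl13 was not called (limma adjusted p = 0.0831). Rpl35, not on the list, was among the 15 highest marrow genes and slightly higher there by the unweighted fit alone (score difference 0.13 ± 0.02 SE, limma adjusted p = 0.0155, weighted 0.16), and it lay lower in marrow with ranks over each whole table (-0.033, adjusted p = 0.311). Of 22 genes of ribosome biogenesis and Myc targets, 4 were higher in vitro and 1 in marrow (3 and 0 with weights). Of all tested genes, 13.3% were higher in vitro and 8.54% in marrow (8.57% and 3.51% with weights). Ncl was at 150, 142 and 126 FPKM in vitro and at 56, 38.8 and 48.1 in marrow. Nucleolin (Ncl), of ribosome assembly, was higher in vitro (score difference -0.69 ± 0.08 SE, limma adjusted p = 0.00255, weighted 0.037).

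Glycolysis genes also ranked higher in vitro, with 15 of 21 tested higher there and 0 higher in marrow (14 and 0 with weights), and 8 called without each library. Their median score difference was -0.77, and they held 1.60 to 1.84% of summed FPKM in vitro against 0.217 to 0.401% in marrow. Gapdh was at 281, 268 and 260 FPKM in vitro and at 42.9, 42.3 and 49.7 in marrow. Gapdh, which has many pseudogene copies, was higher in every in vitro library (score difference -1.005 ± 0.05 SE, limma adjusted p = 0.000897, weighted 0.00184). Pfkl was at 127, 123 and 106 FPKM in vitro and at 9.04, 13.3 and 11.1 in marrow. Pfkl, the liver-type phosphofructokinase of the committed step, moved the same way (score difference -1.23 ± 0.09 SE, limma adjusted p = 0.0015, weighted 0.00619). Pgk1 was at 1823, 1810 and 1701 FPKM in vitro and at 135, 83.9 and 267 in marrow. Phosphoglycerate kinase (Pgk1) did as well (score difference -1.03 ± 0.13 SE, limma adjusted p = 0.00323, weighted 0.00273). Gpi1 was at 990, 960 and 1004 FPKM in vitro and at 153, 184 and 228 in marrow. Gpi1, which interconverts the first sugar phosphates, was higher in vitro in every library (score difference -0.71 ± 0.05 SE, limma adjusted p = 0.00152, weighted 0.00153).

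Hypoxia response genes gave 8 of 17 higher in vitro and 0 in marrow (8 and 0 with weights), with a median score difference of -0.92. Ero1a was at 351, 291 and 249 FPKM in vitro and at 19.4, 0.0526 and 12.6 in marrow. Ero1a, an oxidase that forms disulfide bonds, was higher in vitro (score difference -1.76 ± 0.24 SE, limma adjusted p = 0.00503, weighted 0.00213). P4ha1 was at 78.7, 76.3 and 72 FPKM in vitro and at 0.0112, 0 and 3.38 in marrow. P4ha1, a collagen prolyl hydroxylase, was near 0 in marrow (score difference -1.84 ± 0.27 SE, limma adjusted p = 0.00644, weighted 0.00255). Vegfa was at 42, 32.8 and 26.7 FPKM in vitro and at 43.3, 48.6 and 2.48 in marrow. Vegfa, the blood vessel growth factor gene, overlapped between the sets (limma adjusted p = 0.7). Of sterol and fatty acid synthesis genes 9 of 16 were higher in vitro and 0 in marrow (8 and 0 with weights), with a median of -0.93. Scd2 was at 353, 316 and 266 FPKM in vitro and at 1.38, 0 and 8.35 in marrow. The desaturase gene Scd2 was higher in vitro (score difference -2.31 ± 0.33 SE, limma adjusted p = 0.00584, weighted 0.00131).

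Respiratory genes were called in both directions. Of 29 tested nuclear oxidative phosphorylation genes, 8 were higher in marrow and 5 higher in vitro (6 and 4 with weights), with a median score difference of 0.07. Cycs was at 20.5, 20.9 and 23.6 FPKM in vitro and at 252, 315 and 233 in marrow. Cytochrome c (Cycs), the electron carrier of the respiratory chain, was higher in marrow (score difference 1.14 ± 0.07 SE, limma adjusted p = 0.00131, weighted 0.00391). Sdhb was at 70.2, 79.2 and 79.5 FPKM in vitro and at 374, 397 and 371 in marrow. Sdhb, a subunit of succinate dehydrogenase, was higher there too (score difference 0.53 ± 0.05 SE, limma adjusted p = 0.00205, weighted 0.0241). Atp5b was at 565, 594 and 622 FPKM in vitro and at 195, 264 and 512 in marrow. The ATP synthase subunit gene Atp5b lay the other way (score difference -0.42 ± 0.11 SE, limma adjusted p = 0.0496, weighted 0.0238). Of the 13 mitochondrially encoded genes, 5 were higher in vitro and 0 in marrow (1 and 0 with weights), with a median of -0.36. With weights, 1 of 13 is close to the 8.57% of all tested genes that were higher in vitro. Fatty acid oxidation and lipid droplet genes gave 1 call each way among 18 tested (2 in vitro and 0 in marrow with weights). In the unweighted fit that is below the 8.54% of all tested genes higher in marrow and the 13.3% higher in vitro. Acadvl was at 31.3, 33.6 and 29.2 FPKM in vitro and at 0, 0 and 0 in marrow. Acadvl, which starts the oxidation of very long chain fatty acids, was listed at 0 in marrow (score difference -1.86 ± 0.13 SE, limma adjusted p = 0.00152, weighted 0.00214).

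**Figure D5:**
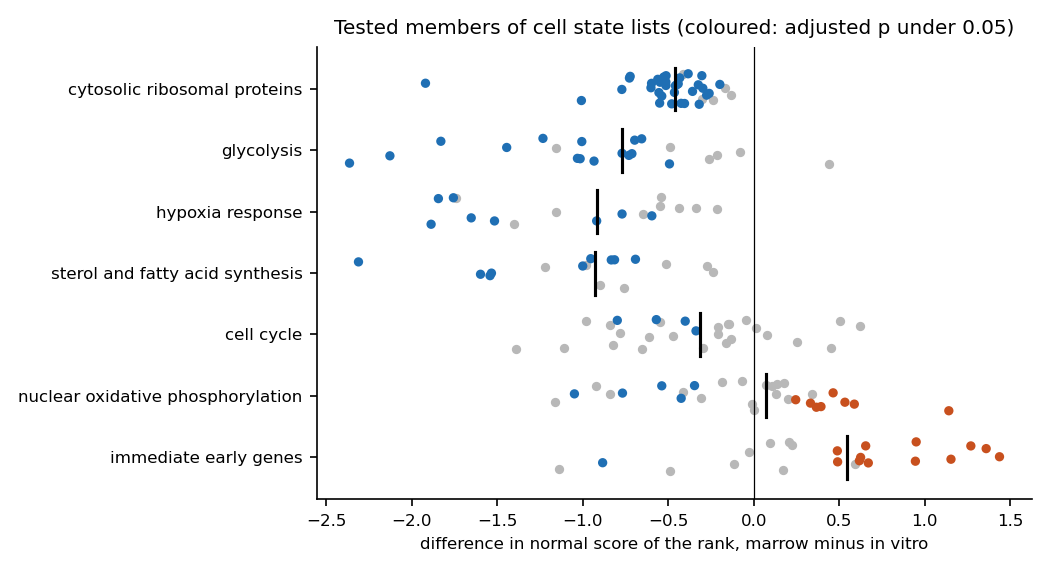
Difference in normal score of the rank, marrow minus in vitro (horizontal), for tested members of 7 cell state lists, with 1 point per gene, coloured where the unweighted limma adjusted p is under 0.05, and black bars at list medians. Ribosomal protein, glycolysis, hypoxia and sterol synthesis medians lie at -0.46 to -0.93, and the immediate early median lies at 0.54. The lists drawn were chosen after the values were seen.

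Immediate early genes, which cells switch on within minutes of a stimulus, had more calls toward marrow in the unweighted fit. Of 22 tested, 12 were higher in marrow and 1 higher in vitro, but 3 and 0 with weights, with a median score difference of 0.54. Fos was at 75.3, 96.1 and 79.2 FPKM in vitro and at 791, 1063 and 1302 in marrow. Fos, part of the AP-1 factor, was higher in marrow in both fits (score difference 0.94 ± 0.10 SE, limma adjusted p = 0.00205, weighted 0.00586). Dusp1 was at 46.4, 73.6 and 67.6 FPKM in vitro and at 842, 1283 and 1303 in marrow. Dusp1, a phosphatase that shuts off MAP kinases, was higher in the unweighted fit (score difference 1.15 ± 0.11 SE, limma adjusted p = 0.00205, weighted 0.0826). Egr1 was at 150, 349 and 354 FPKM in vitro and at 35.2, 1.13 and 188 in marrow. Egr1 was not called (limma adjusted p = 0.121), nor was Jun (adjusted p = 0.599). Time from harvest to lysis is not given in the sources used here, and its part was not tested.

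Interferon-stimulated genes had 3 of 12 tested higher in marrow and 0 higher in vitro (4 and 0 with weights). Ifitm3 was at 210, 205 and 274 FPKM in vitro and at 1633, 2252 and 1891 in marrow. The antiviral membrane protein gene Ifitm3 was higher in every marrow library (score difference 0.75 ± 0.07 SE, limma adjusted p = 0.00205, weighted 0.00211). Cell cycle genes gave 4 of 28 higher in vitro and 0 in marrow (1 and 0 with weights), with a median of -0.32. That is close to the 13.3% of all tested genes that were higher in vitro, and with weights it is below their 8.57%. Mki67 was at 52.4, 40.4 and 31.2 FPKM in vitro and at 18.1, 8.8 and 10.7 in marrow. Mki67, the proliferation marker, was higher in vitro in the unweighted fit (score difference -0.57 ± 0.15 SE, limma adjusted p = 0.043, weighted 0.323). Pcna was at 173, 183 and 186 FPKM in vitro and at 282, 237 and 452 in marrow. Pcna, the sliding clamp of DNA replication, had nearly equal percentiles in both sets (limma adjusted p = 0.944). Cdkn2d was at 45.5, 44.1 and 45.1 FPKM in vitro and at 404, 416 and 329 in marrow. Cdkn2d, a cyclin-dependent kinase inhibitor, was higher in marrow (score difference 0.85 ± 0.05 SE, limma adjusted p = 0.00131, weighted 0.00215). Heat shock and unfolded protein genes went both ways, with 2 of 18 higher in marrow and 4 higher in vitro (1 and 2 with weights). Of all tested genes, 8.54% were higher in marrow and 13.3% in vitro (3.51% and 8.57% with weights). These few calls are not read as a result about the list.

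Outside the lists, the largest differences toward marrow included Ly86, Wfdc17, Penk and Hpgd. Ly86 was at 0.0175, 0.0182 and 0.328 FPKM in vitro and at 176, 424 and 637 in marrow. Ly86 encodes MD-1, a partner of a Toll-like receptor relative on B cells and myeloid cells (score difference 3.24 ± 0.22 SE, limma adjusted p = 0.00152, weighted 0.00622). Wfdc17 was at 8.67, 9.31 and 11.2 FPKM in vitro and at 5153, 5917 and 2187 in marrow. Wfdc17, a secreted protein gene of myeloid cells, was within the 15 highest marrow genes (score difference 2.86 ± 0.11 SE, limma adjusted p = 0.000897, weighted 0.00011). Hpgd was at 2.65, 1.11 and 0.922 FPKM in vitro and at 396, 406 and 548 in marrow. Hpgd inactivates prostaglandins (score difference 2.67 ± 0.13 SE, limma adjusted p = 0.000897, weighted 0.00158). Toward the in vitro cells the largest differences were mostly genes listed at or near 0 in marrow. Ctla2a was at 88.5, 95.2 and 102 FPKM in vitro and at 0, 0 and 0 in marrow. Ctla2a, a cysteine protease inhibitor gene, was one (score difference -2.52 ± 0.12 SE, limma adjusted p = 0.000897, weighted 0.000504). Muc13 was at 99.4, 90.8 and 82.8 FPKM in vitro and at 0, 0 and 0 in marrow. The membrane mucin gene Muc13 was another (score difference -2.50 ± 0.12 SE, limma adjusted p = 0.000897, weighted 0.00098). Asns was at 60.3, 63 and 62.9 FPKM in vitro and at 0, 0 and 0 in marrow. Asns makes asparagine and was already counted in the heat shock and unfolded protein list (score difference -2.28 ± 0.12 SE, limma adjusted p = 0.000902, weighted 0.00098). Tgfb1 was at 180, 231 and 242 FPKM in vitro and at 0.125, 0 and 0.231 in marrow. Tgfb1, which encodes a broadly acting growth inhibitor, was near 0 in every marrow library (score difference -2.41 ± 0.23 SE, limma adjusted p = 0.00205, weighted 0.000753). As a 0 can be a failed estimate in these libraries, these differences are given as the files list them.

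The targeted gene of the series was barely present in vitro: Fabp4 was at 0, 0.0326 and 0.330 FPKM, and it was not analysed here in marrow. Fabp5 was at 75.1, 93.6 and 100 FPKM in vitro and at 0, 0.0406 and 37.2 in marrow. Fabp5, which encodes the epidermal form of the family, was higher in every in vitro library but not called in the unweighted fit (score difference -1.61 ± 0.47 SE, limma adjusted p = 0.0649, weighted 0.0151). Fabp1 was at 0, 0.055 and 0 FPKM in vitro and at 0, 53.5 and 0 in marrow. Fabp1, the liver form, was thus above 1 FPKM in 1 marrow library and was not tested.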

How the data were processed

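Per the file headers, the deposited values were FPKM in 1 table per set, with 22017 genes in vitro and 13195 in marrow. Genes were matched by gene identifier. TRIzol served to extract total RNA and a VAHTS Universal kit to prepare libraries, per the labels' protocols. The submitters' processing notes name mm10 as the build. For the aligner, counter, annotation and strandedness, the tool or setting is not given in the sources used here. FPKM hold no counts. Depth was estimated from the steps of low values of single-exon genes, of which 75.9 to 86.0% lay within 0.1 of a whole step. It is approximate: marrow libraries 1 and 2 scored best at 43.5 and 51.7 M fragments, about double the values given, and the smaller step was taken after that was seen.

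Ranks within each library over the shared genes (ties averaged) were turned into normal scores and fitted with limma 3.58.1 (R 4.3.3, with statmod 1.5.0; trend and robust moderation, 3 against 3 libraries, no block, two-sided, Benjamini-Hochberg, threshold 0.05). Genes needed at least 1 FPKM in at least 3 of the 6 libraries, which 9311 tested genes met in all in vitro libraries and 3725 in all marrow libraries. Tied zeros sit at percentile 17.3 to 17.8 in marrow and 2.5 to 3.4 in vitro. The fit was tested on simulated data. With the unequal spread of the sets its p-values were too small and unchanged genes were called beyond the threshold's rate in every version with changed genes. Library weights per set (arrayWeights) reduced this and did not remove it.

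Of 579 names in 32 gene lists, 418 were in both tables. Named genes were the 12 largest called differences each way without overlap and with a mean percentile of at least 75 in the higher set, the 15 highest genes of each set, per list up to 4 members with the smallest p and 3 with the highest percentile in each set, and Fabp genes. Not every gene that met this rule is described, and some are not reported here. Camp, Ngp, Cebpa, Klf4, H2-Aa, Hoxa9, Mecom, Ly6g, Vcam1, Adgre1, Trem2, Itgax, Xcr1 and the genes held by 1 table were chosen after their values were seen. Predicted genes were not named. Members and lists were chosen with earlier results of these data known. The alternatives covered other scales, pseudocounts (1 and 0.1), filters, ranked genes, weights, the replicate block and leaving out each library. Testing only genes above 0 in all 6 libraries and repeating the contrast in knockout libraries were added after the data were seen. Replicate 2 of the heterozygous marrow group was not analysed here.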

Additional observations from a re-analysis of the deposited data

How the results depend on the processing

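The count of 2090 called genes changed by more than 1.5 times with a filter on a mean percentile of 50 (1175, of which 622 were higher in vitro) and with library weights per set (1156, of which 336 were higher in marrow and 820 in vitro). Leaving out 1 library gave 233 to 3477 calls, 134 to 1307 of them higher in marrow and 99 to 2170 higher in vitro. The low values came without an in vitro library (244, 233 and 288) and the high values without a marrow library (3253, 3109 and 3477). Calls higher in marrow numbered 1347 with no filter on low values and 248 with ranks over each whole table. Calls higher in vitro numbered 2183 on log2(FPKM + 1) as deposited, 2743 with ranks over each whole table and 662 among genes above 0 in all 6 libraries. The replicate number as a block gave 1216 calls, 315 of them higher in marrow. Same-numbered libraries of the sets did not deviate together (correlations of -6e-04, -0.0092 and 0.027). As the in vitro libraries differed little from each other, these values cannot show whether same-numbered libraries share an origin.

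Directions of 3 named genes reversed. Rpl35 (-0.033) and Cdkn1a (-0.203, adjusted p = 0.0184) did so with ranks over each whole table, and Cd28 (-0.435, adjusted p = 0.00804) without marrow replicate 3, with a range of -0.435 to 0.235 over the libraries left out. The cause was not tested. The number of genes above 0 was lower in marrow under each alternative run. Over the named genes and lists, 334 values lost the threshold under an alternative and 63 gained it. The many values listed at 0 limit the marrow set: low genes there cannot be read as absent. Depth there is uncertain.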

Other observations

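The same contrast in the knockout libraries (3 of each set, none shared with the wild-type comparison) gave 2193 called genes, 774 higher in marrow and 1419 higher in vitro. Of the 2090 genes called in wild type, 865 (41.4%) were called the same way there and 284 had the opposite sign. Both contrasts cross the same pair of tables, so a difference between the tables would enter both. Cd74 had a score difference of 3.63 in the knockout libraries (limma adjusted p = 3.86e-05) and Ctss one of 2.63 (0.000134). S100a8, uneven between wild-type marrow libraries, was called there (1.62, adjusted p = 2.03e-06). Ly6k, at 134, 338 and 29.6 FPKM in wild-type marrow, had -0.24 in the knockout contrast (adjusted p = 0.763). Acadvl, listed at 0 in every wild-type marrow library, had -0.14 there (adjusted p = 0.543).

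The in vitro table held 9413 genes that the marrow table did not, of which 1074 reached a mean of 1 FPKM in wild type and 150 reached 10. Among them were the globin genes Hbb-bt (262, 361 and 282 FPKM) and Hbb-bs (74.0, 77.5 and 96.6), the erythroid factor gene Gata1 (39.6, 44.1 and 44.7), and the platelet genes Itga2b (118, 139 and 107) and Pf4 (102, 103 and 89.0). These genes were not analysed here in marrow.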
